A study of Mus musculus with 30 samples.

Results

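The comparison described here is the response of blood from p38DN mice to 7 Gy of x-rays, read 24 h after exposure. Its members were chosen by their sample titles, as the 5 irradiated and the 5 unirradiated p38DN arrays, which make 10 of the 30 arrays of the series. The series also holds 10 arrays each from p38WT and p38DKI mice, and its stated subject is how the p38 mitogen-activated protein kinase cascade affects the use of blood gene expression as a radiation dosimeter. All mice were C57BL/6J males, and each genotype and treatment had 5 independent experiments. Blood was taken by cardiac puncture into an RNA-stabilising lysis solution (PAXgene), so red cell precursors, platelets and all white cells entered the same RNA. The labels name the genotype p38DN and describe neither its allele nor the cells in which it acts, and unirradiated p38DN mice, not wild-type mice, are the reference for every change below unless another is named.

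The p38 kinases are stress-activated protein kinases that are switched on by upstream kinases of the MAP2K and MAP3K tiers and switched off by dual-specificity phosphatases, and they pass the signal to kinases such as MK2 and MSK and to transcription factors such as ATF2 and MEF2. Ionizing radiation also activates p53, which induces genes of cell cycle arrest and apoptosis, and it kills lymphocytes readily, B cells above all. In whole blood a transcript can therefore move because a cell type became rarer or because each cell made less of it, and the array values cannot tell fewer cells from less RNA per cell.

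Values are log2 levels relative to the 75th percentile of the same array, so a level of 0 is the array's own 75th percentile, and a change is the 7 Gy level minus the unirradiated level on that log2 scale. Levels of different probes are not comparable with each other. The 10 p38DN arrays had a 75th-percentile signal of 43.3 to 113.1 intensity units and detected 41.6% to 54.4% of probes well above background, and at most 1 probe was saturated. The p38DN arrays lay on 5 slides, and each slide held 1 unirradiated and 1 irradiated array of the same replicate number, whereas p38WT and p38DKI arrays lay on 5 other slides, so slide and genotype cannot be told apart when p38DN is set against them. Unirradiated arrays 4 and 5 differed by a median of 0.109 and irradiated arrays 1 and 5 by 0.157. The other 58 within-group pairs of the series differed by 0.168 or more. For single spots the spread of the difference was 0.162 and 0.248, above the 0.139 and 0.157 that repeat spots within an array give. The 500 genes most variable in other groups differed no more than the remaining genes between these arrays (ratios 0.999 and 0.996). That ratio was at least 1.33 in all other pairs. The 2 near-identical pairs were each averaged and counted as 1 sample, which left n = 4 against n = 4, and the single arrays are still given where values are listed. Nothing in the labels says which animals the experiments used, so the tests measure the spread between these samples.

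Blood markers were present as labelled, with haemoglobin, platelet, neutrophil, B cell and T cell transcripts detected in unirradiated samples, but liver transcripts were high on some arrays. The mean level of 44 hepatocyte genes was 5.45, 6.48 and 6.47 on unirradiated arrays 2, 4 and 5, against -0.19 and -0.95 on arrays 1 and 3. Among irradiated arrays it was 1.76 and 1.52 on arrays 2 and 4 and between -2.48 and 0.23 on arrays 1, 3 and 5. Albumin (Alb) showed the same split, at 9.20, 10.22 and 10.24 on unirradiated arrays 2, 4 and 5 and at 5.42 and 5.6 on irradiated arrays 2 and 4, against 2.96 or lower elsewhere. Heart muscle transcripts were highest on irradiated array 3, with a mean of 0.74 over 20 heart genes, 15 of them well above background, where the other 9 arrays were between -3.96 and -2.77 with 2 to 12 above background. Counts are therefore also given without the 3 unirradiated liver-rich arrays, called the 7-array set, and without all 5 liver-rich arrays, called the 5-array set. With near-identical arrays averaged, the 7-array set has 2 unirradiated samples against 4 irradiated ones, and the 5-array set has 2 against 2. Calls can also be lost in these sets because fewer samples remain, and this was not separated from the loss of liver RNA. What these tissues contribute to any single change was not tested beyond that.

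Of 18726 genes measured, 4303 (23%) passed an adjusted p below 0.05 in the p38DN comparison (limma, Benjamini-Hochberg), 2667 higher (14.2%) and 1636 lower (8.74%) after 7 Gy. The median change over all genes was -0.03, and 3032 of the genes that passed changed at least 2-fold. In the 7-array set 3419 genes passed, 2831 of them shared with the full set. In the 5-array set 1649 passed (999 higher, 650 lower), 1528 of them shared. List counts in these sets are to be read against these lower totals. Rises made up 62% of the calls, and this share depended on the scaling. It was 46.8% (2210 higher, 2511 lower) when arrays were scaled on probes detected everywhere, which moved the median of all genes to -0.18, 48.3% (1797 and 1924) in the deposited normalised table and 67.6% with median scaling. It was 49.3% in the 7-array set, at 1686 higher and 1733 lower. With no scaling 2084 genes were higher and 875 lower, and the median of all genes moved to 0.15. With normexp background correction in place of the scanner's own, 417 genes passed (320 higher, 97 lower), all 417 of them among the 4303, and 91 of the 176 genes chosen by the naming rule lost their call. Leaving out 1 array at a time gave between 3186 calls, without irradiated array 4, and 4559 calls, without irradiated array 3; the count of lower genes was 1022 without unirradiated array 3 and 1081 without irradiated array 4.

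The direction of change was also read slide by slide. The genes were called from these same arrays, so high shares among them follow from the selection and are not separate support. The slides are not independent either, since the near-identical arrays lay on different slides. Of the 2667 higher genes, 2265 (84.9%) were higher in the irradiated array on all 5 slides, against 18.6% of all genes, and 1904 (71.4%) had no overlap between the irradiated and the unirradiated arrays. Of the 1636 lower genes, 1448 (88.5%) were lower on all 5 slides, against 18.5% of all genes, and 1044 (63.8%) had no overlap. Groups did not overlap for 3760 of all 18726 genes (20.1%).

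Targets of p53 rose in p38DN blood: 28 of 44 measured targets were higher (63.6%, against 14.2% of all genes) and 1 was lower, with a median change of 1.25. Gdf15, a secreted stress cytokine, was at -3.48, -2.59, -4.57, -1.41 and -2.02 on the 5 unirradiated arrays and at 1.85, 2.26, 1.45, 2.70 and 1.43 on the 5 irradiated ones. Every irradiated array lay above every unirradiated array, and the means were -3.09 ± 1.22 and 2.02 ± 0.574 (SD, n = 4 each). The gene rose by 5.10 ± 0.61 (SE), or 34.3-fold, with an adjusted p of 3.06e-06 (limma), and it was well above background on 3 of the 5 unirradiated arrays. Its probe lies on chromosome 8 at 73153293-73153352 (mm9).

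Cdkn1a, the p21 inhibitor of cyclin-dependent kinases, had levels of 0.45, -1.92, -2.02, -0.36 and -0.63 without and 3.04, 4.08, 3.48, 3.96 and 2.71 with radiation (chromosome 17, 29237377-29237436). The groups did not overlap, and unirradiated array 1 was the highest of its group. The change was 4.59 ± 0.48 (24.1-fold, adjusted p 4.67e-07 in limma), and a second probe of the gene gave 3.61. Phlda3, an inhibitor of Akt signalling, varied little within its groups, at 1.27, 0.72, 0.87, 1.23 and 1.32 against 5.06, 4.99, 5.19, 4.76 and 4.81 (chromosome 1, 137665642-137665701). It rose by 3.93 ± 0.31 (15.3-fold, adjusted p 7.84e-09), with an SD of 0.177 among irradiated samples.

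Zmat3, an RNA-binding p53 target, was at -2.15, -2.27, -2.81, -2.23 and -2.41 before and 0.63, 0.95, 0.11, 0.99 and 0.78 after irradiation (chromosome 3, 32233831-32233890), a rise of 3.08 ± 0.24 (adjusted p 7.84e-09). Tnfrsf10b, the death receptor for TRAIL, was not well above background on any unirradiated array (-3.63, -4.31, -4.26, -5.19 and -3.91) and was at -0.19, -0.86, -0.66, -0.76 and -0.36 after 7 Gy (chromosome 14, 70184141-70184200). Set against the lowest signal above background, its rise was at least 4.99-fold (adjusted p 9.34e-09), whereas normexp gave a change of 0.43 with an adjusted p of 0.511. Both genes were clearly separated between doses, and both also differed between p38DN and p38WT, as given further on. Mdm2, the ubiquitin ligase that limits p53, was at 1.66 to 2.03 without and 3.75 to 4.01 with radiation and rose by 2.06 ± 0.18 (4.17-fold, adjusted p 5.81e-08). Ccng1, cyclin G1, rose by 2.85 (7.2-fold, adjusted p 7.49e-08).

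Not all p53 targets passed. Bax, the pro-apoptotic pore former, was at 2.18 to 2.6 on unirradiated and 4.08 to 4.78 on irradiated arrays, a difference of 2.05 with no overlap. Its standard error was 1.09, because the fit pools the spread over all 28 samples of the 3 genotypes, and the adjusted p was 0.181 (limma). Ddb2, a nucleotide excision repair protein, changed by -0.30 (adjusted p 0.477). Ptp4a3, a tyrosine phosphatase, fell by 1.75 on the log2 scale (adjusted p 0.00526) and was the only target on the list that fell. Gadd45a, also a p53 target, was counted in the p38 list and not here, and its change of -1.12 is described there. With the 7-array set 24 targets were higher and 1 lower, and in the 5-array set 19 were higher and none lower. Slide by slide the median change of the list ran from 1.22 to 1.64, with the median of all genes between -0.18 and 0.22.

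**Figure D1:**
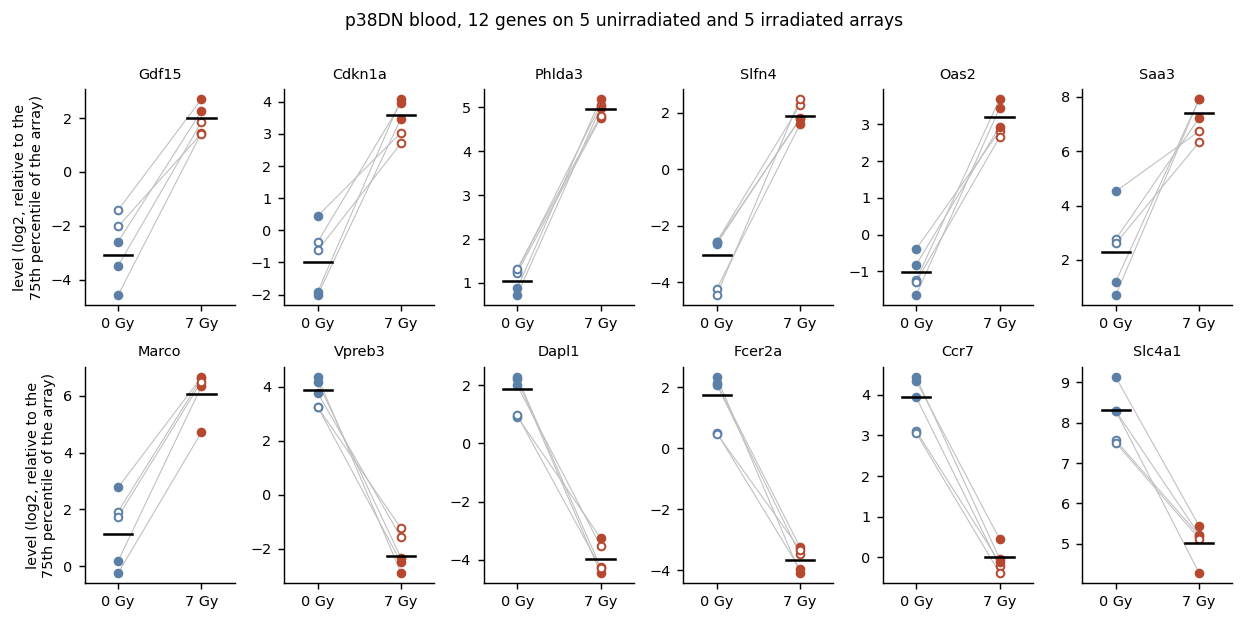
Levels (log2, relative to the array's 75th percentile) of 12 genes on the 10 p38DN arrays at 0 Gy and 7 Gy. Points are arrays, grey lines join the arrays of one slide, open circles are the 2 averaged pairs of near-identical arrays and bars are means of 4 samples. Gdf15, Cdkn1a, Phlda3, Slfn4, Oas2, Saa3 and Marco are higher and Vpreb3, Dapl1, Fcer2a, Ccr7 and Slc4a1 lower after 7 Gy with no overlap between doses.

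Interferon-stimulated genes rose as a group but not uniformly. Of 38 measured, 26 were higher (68.4%, against 14.2% of all genes), 3 were lower (7.89%, against 8.74%) and 9 did not pass, with a median change of 1.39. Oas2, which makes the 2-5A that activates RNase L, was at -0.39, -1.65, -0.82, -1.24 and -1.28 on unirradiated and 2.82, 3.44, 2.94, 3.69 and 2.65 on irradiated arrays (chromosome 5, 121180343-121180402). All irradiated arrays were far above the unirradiated ones, and the change was 4.23 ± 0.34 (18.8-fold, adjusted p 9.34e-09 in limma). Oas1a, a second synthetase, rose by 3.33 (10-fold, adjusted p 2.14e-07 in limma). Mx1, a gene of the dynamin-like GTPase family, rose 10.2-fold while being well above background on only 2 unirradiated arrays. Rtp4, a transport protein with antiviral activity, was at 1.08 to 1.42 without and 3.72 to 4.42 with radiation (2.95 ± 0.28, adjusted p 9.53e-08). Ifih1, the cytosolic RNA sensor MDA5, was at -1.57 to -0.92 without and 0.46 to 1.02 with radiation (2.0 ± 0.18, adjusted p 6.47e-08).

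The Ifit genes, whose proteins bind viral RNA, differed in size of response. Ifit3b was at -2.68, -2.74, -3.28, -4.98 and -3.91 before and 1.53, -0.12, 0.73, -0.46 and 1.70 after irradiation. It rose by 3.73 ± 0.47 (13.3-fold, adjusted p 6.44e-06), was well above background on 1 unirradiated array, and a second probe gave 1.25. Ifit3 rose by 3.21 ± 0.33 (9.24-fold, adjusted p 3.02e-07) and Ifit1 by 1.78 ± 0.39 (adjusted p 0.00178). Ifit3 and Ifit3b are near-identical copies, so their probes may read each other and their values are uncertain. For Ifit3, irradiated arrays 2 and 4, which were liver-rich, were the lowest of their group at 1.46 and 1.53, against 2.6 to 3.27 on arrays 1, 3 and 5.

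The 3 members that fell were Isg15, Rsad2 and Isg20. Isg15, a ubiquitin-like modifier, was at 7.51, 6.77, 7.83, 6.96 and 6.86 on unirradiated and 6.47, 4.19, 5.69, 5.43 and 6.47 on irradiated arrays, with no overlap. It fell by 1.81 on the log2 scale (SE 0.47, adjusted p 0.00676). Rsad2, the antiviral enzyme viperin, fell by 2.09 on the log2 scale with overlapping groups (adjusted p 0.00553), and Isg20, an exonuclease, by 0.99 (adjusted p 0.0393). Irf7, a transcription factor of the pathway, did not pass (-0.07, adjusted p 0.919). In the 7-array set 22 members were higher and 3 lower, and in the 5-array set 20 were higher and none lower.

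Because these genes rose together, their promoters were read for the interferon-stimulated response element, searched on both strands as GAAA, any 2 bases and GAAA again, which reads TTTC, any 2 bases and TTTC from the other strand, in the 250 bases before the start (RefSeq, GRCm38.p6). The 5 largest risers of the interferon and Schlafen lists with a match are shown 5′ to 3′ with the matched bases in capitals.

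Ifit3b, chr19:34607707-34607956, plus strand: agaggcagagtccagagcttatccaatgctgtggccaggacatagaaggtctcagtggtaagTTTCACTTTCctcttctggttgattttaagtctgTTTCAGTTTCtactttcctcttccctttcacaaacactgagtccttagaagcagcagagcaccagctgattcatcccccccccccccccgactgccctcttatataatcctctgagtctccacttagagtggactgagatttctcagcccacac

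Oas1a, chr5:120907526-120907775, minus strand: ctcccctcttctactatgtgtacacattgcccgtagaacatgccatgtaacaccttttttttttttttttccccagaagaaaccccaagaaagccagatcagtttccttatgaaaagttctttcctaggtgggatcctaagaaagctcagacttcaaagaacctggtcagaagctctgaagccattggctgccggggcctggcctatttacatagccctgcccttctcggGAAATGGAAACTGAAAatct

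Ifit3, chr19:34583279-34583528, plus strand: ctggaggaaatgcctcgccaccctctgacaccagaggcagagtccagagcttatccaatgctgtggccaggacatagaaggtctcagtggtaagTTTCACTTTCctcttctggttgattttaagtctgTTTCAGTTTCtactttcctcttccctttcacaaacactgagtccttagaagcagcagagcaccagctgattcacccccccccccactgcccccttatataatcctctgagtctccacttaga

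Ifit1, chr19:34640639-34640888, plus strand: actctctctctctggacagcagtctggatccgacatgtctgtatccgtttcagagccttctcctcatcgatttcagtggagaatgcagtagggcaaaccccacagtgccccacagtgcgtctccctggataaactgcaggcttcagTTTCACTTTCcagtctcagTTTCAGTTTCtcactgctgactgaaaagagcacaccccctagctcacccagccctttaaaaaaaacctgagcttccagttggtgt

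Trim30d, chr7:104507850-104508099, minus strand: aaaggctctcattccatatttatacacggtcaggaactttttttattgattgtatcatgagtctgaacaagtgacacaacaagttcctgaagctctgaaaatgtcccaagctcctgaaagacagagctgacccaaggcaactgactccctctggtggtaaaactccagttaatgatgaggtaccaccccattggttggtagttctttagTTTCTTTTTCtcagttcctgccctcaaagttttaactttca

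Ifit3b, Ifit3 and Ifit1 each held 2 matches on the opposite strand, Oas1a held 2 that overlap, and Trim30d held 1. The letters occurred in 11 of 27 measured interferon-stimulated genes with an entry (40.7%) and in 6 of the 17 that were higher (35.3%), against 936 of 27025 genes (3.46%), or 978 of 32851 promoters (2.98%). They occurred in 3 of 8 Schlafen genes (37.5%) and 2 of 36 p53 targets (5.56%). Among genes that rose more than Trim30d, Slfn4, Oasl2, Slfn3, Ifih1, Oasl1, Ifitm1, Xaf1, Slfn1 and Ifitm3 had an entry but no match in this window. Oas2, Mx1, Ifi27l2a, Rtp4, Usp18, Zbp1, Dhx58 and Parp14 had no entry.

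The Schlafen family, interferon-inducible regulators of lymphocyte and myeloid cell growth, was mostly higher after 7 Gy, with 7 of 9 measured genes passing upward (77.8%, against 14.2% of all genes) and none downward. Slfn4 was at -2.57, -2.65, -2.59, -4.24 and -4.46 on unirradiated and 2.27, 1.8, 1.77, 1.58 and 2.48 on irradiated arrays (chromosome 11, 83002974-83003033). The near-identical unirradiated arrays 4 and 5 were the lowest, no irradiated array came near the unirradiated range, and the change was 4.92 ± 0.50 (30.3-fold, adjusted p 3.02e-07 in limma). The probe was well above background on 2 of 5 unirradiated arrays.

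Slfn3 rose by 2.75 (adjusted p 3.67e-05, well above background on 1 unirradiated array), Slfn1 by 1.49 (adjusted p 0.00211), Slfn8 by 1.37 (adjusted p 0.00319) and Slfn9 by 1.29 (adjusted p 0.00333), the last with a second probe at 0.37. Slfn10-ps, a pseudogene, rose by 1.08 (adjusted p 0.0161), and its change was 0.85 with an adjusted p of 0.066 without unirradiated arrays 4 and 5. Slfn2 rose by 0.76 (adjusted p 0.0482) and lost its call without unirradiated array 2 (0.72), unirradiated arrays 4 and 5 (0.58), irradiated arrays 1 and 5 (0.83) or any 1 of irradiated arrays 2 to 5 (0.68 to 0.78). Slfn5 (-0.18, adjusted p 0.748) and Slfn14 (0.15, adjusted p 0.841) did not pass. With the 7-array set 4 members were higher, and in the 5-array set 3 were. The genes are close paralogs, so probes may share signal.

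B cell transcripts fell: 24 of 25 measured markers were lower (96%, against 8.74% of all genes), none was higher, and the median change was -2.58. Vpreb3, part of the B cell receptor assembly pathway, was at 3.78, 4.18, 4.37, 3.27 and 3.25 without and -1.57, -2.33, -2.89, -2.50 and -1.24 with radiation (chromosome 10, 75412326-75412385). All irradiated arrays were below 0 and all unirradiated arrays above 3, and the fall was -6.18 ± 0.43 (72.4-fold, adjusted p 2.23e-09 in limma). Fcer2a, the low-affinity IgE receptor CD23, was at 2.09, 2.13, 2.34, 0.52 and 0.49 on unirradiated arrays (chromosome 8, 3682343-3682402). It was not well above background on any irradiated array, where it lay between -4.08 and -3.23, so its fall was at least 30.2-fold (adjusted p 7.49e-08).

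Chst3, a sulfotransferase (21-fold), and Ell3, an elongation factor of B cells (18.5-fold, well above background on 1 irradiated array), fell alongside. Other B lineage genes with large falls were the IgM Fc receptor Fcmr (24.9-fold), the chemokine receptor Ccr6 (22.8-fold, above background on 2 irradiated arrays), Fcrla (15.5-fold) and Fcrl1 (at least 4.96-fold). Tnfrsf13c, the BAFF receptor, changed by -3.75. The antigen receptor chains Cd79a (-3.35) and Cd79b (-3.03) and Ms4a1 (-2.47), which encodes the surface antigen CD20, also fell. Cd79a was at 3.99 to 5.61 on unirradiated arrays and at 0.99 to 3.03 on irradiated ones, with irradiated array 2 the highest of its group. Cd37, a tetraspanin of mature B cells, was the single marker that did not pass (-0.32, adjusted p 0.599). The count was 24 of 25 in the 7-array set and 23 of 25 in the 5-array set. Slide by slide the median change of the list was between -3.73 and -1.76.

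All 11 measured genes of MHC class II, which presents peptides to CD4 T cells, were lower (100%, against 8.74% of all genes), with a median change of -1.88. H2-Ob was at 3.23, 3.18, 3.59, 1.83 and 1.85 without and -0.60, -0.03, -0.60, -1.02 and -0.51 with radiation and changed by -3.52 ± 0.43 (adjusted p 4.31e-06). Its partner H2-Oa changed by -3.38, and H2-Eb2 fell at least 4.58-fold. The invariant chain Cd74 (-1.88) and H2-Aa (-1.91) fell by less than H2-Oa and H2-Ob. All 11 were lower in the 7-array set, and 10 were lower in the 5-array set. Of 16 MHC class I and peptide loading genes 8 were higher (50%, against 14.2% of all genes) and none lower, among them H2-T24 (1.79, adjusted p 0.00063), H2-Q6 (0.96) and H2-T23 (0.89). The count was 4 in the 7-array set and 2 in the 5-array set.

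T cell markers moved less as a list and split by gene. Of 28 measured, 9 were lower (32.1%, against 8.74% of all genes) and 1 was higher (3.57%, against 14.2%), with a median change of -0.76. Dapl1, a gene of naive T cells, was at 1.99, 2.27, 2.21, 0.92 and 0.97 without and -3.52, -4.25, -4.45, -3.25 and -4.28 with radiation (chromosome 2, 59342824-59342883). The separation was complete, the change was -5.82 ± 0.43 (56.4-fold, adjusted p 4.49e-09), and only 1 irradiated array was well above background, so the size rests on dim signals; with normexp it was -1.83 (adjusted p 0.0152). Ccr7, the receptor that brings naive lymphocytes to lymph nodes, was at 3.94, 4.34, 4.44, 3.11 and 3.06 without and between -0.39 and 0.45 with radiation (-3.95 ± 0.36, 15.5-fold, adjusted p 7.93e-08). B cells also express Ccr7.

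Cd8a, the coreceptor of cytotoxic T cells, fell at least 5.98-fold and was not well above background on any irradiated array. Tcf7 (-1.96) and Lef1 (-1.83), transcription factors of naive T cells, fell as well. Cd3e, a chain of the T cell receptor complex, was at 3.71 to 4.76 without and 3.13 to 4.03 with radiation and did not pass (-0.59, adjusted p 0.358). Cd4 did not pass either (-0.53, adjusted p 0.0754), and Lat, an adaptor shared with platelets and NK cells, was the 1 member that rose (0.94, adjusted p 0.0378). The count of lower members was 9 in the 7-array set and 4 in the 5-array set.

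NK and cytotoxic markers had 4 of 23 higher (17.4%, near the 14.2% of all genes), namely Fasl (1.42), Il2rb (1.38), Cd244a (1.31) and S1pr5 (1.15), and 1 lower, Klrg1 (-1.43). No member rose in the 7-array set. S1pr5 was at 0.95 (adjusted p 0.0657) without irradiated array 2 and 0.93 (adjusted p 0.0709) without irradiated array 4. Dendritic cell markers had 2 of 14 higher (14.3%, near the 14.2% of all genes), Clec10a (2.91) and Clec9a (1.32). The 3 lower ones (21.4%, against 8.74%) were Flt3 (-1.86, adjusted p 0.000435), Irf8 (-2.50) and Ly6d (-2.86). Irf8 and Ly6d are also expressed by B lineage cells. Among 11 basophil and eosinophil markers 1 passed (9.09%, below the share of all genes), Gata2 (1.41), which platelets' precursors also express.

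Erythroid transcripts fell and platelet transcripts rose. Of 37 measured erythroid markers 22 were lower (59.5%, against 8.74% of all genes) and 5 higher (13.5%, near the 14.2% of all genes), with a median change of -1.46. Slc4a1, the anion exchanger of the red cell membrane, was at 8.29, 8.30, 9.13, 7.56 and 7.51 without and 5.23, 4.28, 5.45, 5.21 and 5.13 with radiation (chromosome 11, 102210256-102210315). The groups were well apart, and the change was -3.28 ± 0.55 (9.73-fold, adjusted p 0.00015 in limma). Ank1 (-3.58) and Epb42 (-3.38), proteins that join this exchanger to the membrane skeleton, fell, while Sptb, a spectrin of that skeleton, rose. Urod, an enzyme of haem synthesis, changed by -1.85. Among globins Hbb-b1 changed by -1.46 (adjusted p 0.0212) and Hba-a1 by -0.30 (adjusted p 0.617), and Alas2, the first enzyme of haem synthesis in red cells, changed by -0.63 (adjusted p 0.237).

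The 5 erythroid-list genes that rose were Sptb (2.39), Epor (2.23), Tal1 (2.05), Gata1 (1.72) and Nfe2 (1.14). Gata1, Tal1 and Nfe2 are transcription factors also used by megakaryocytes. Gata1 was at 2.69 to 3.06 without and 3.99 to 5.45 with radiation. In the 7-array set 22 members were lower and 3 higher, and in the 5-array set 12 were lower and 3 higher. The slide-wise median change of the list was between -2.07 and -0.83.

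Platelet and megakaryocyte markers were higher for 29 of 32 members (90.6%, against 14.2% of all genes) with a median change of 1.79. Thbs1, the platelet granule protein thrombospondin, was at 4.29, 2.57, 3.01, 2.93 and 3.04 without and 7.04, 5.94, 6.09, 6.22 and 7.18 with radiation (chromosome 2, 117952585-117952644). Its change was 3.12 ± 0.39 (8.72-fold, adjusted p 6.44e-06). Ptgs1, the cyclooxygenase that makes thromboxane precursors, rose by 2.61 (adjusted p 3.65e-05), the coagulation factor F5 by 2.18 (adjusted p 1.45e-05), the fibrinogen receptor chain Itga2b by 2.40 (5.27-fold) and P-selectin (Selp) by 2.77. Pf4, a chemokine of the platelet granule, was high throughout, at 8.89 to 9.59 without and 9.75 to 10.89 with radiation (1.12, adjusted p 0.0124).

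On irradiated arrays 1 and 5, the near-identical pair, the platelet list averaged 6.38 and 6.44, above the 5.0 to 5.58 of the other irradiated arrays, and unirradiated arrays were at 3.48 to 4.20. The thromboxane receptor Tbxa2r fell by 1.14 on the log2 scale (adjusted p 0.00334), and the collagen receptor Gp6 and Sparc did not pass. With the 7-array set 18 members were higher and 1 lower, and in the 5-array set 22 were higher and none lower. The change was measured relative to the 75th percentile of total RNA, and no cell or platelet counts were among the data used here.

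**Figure D2:**
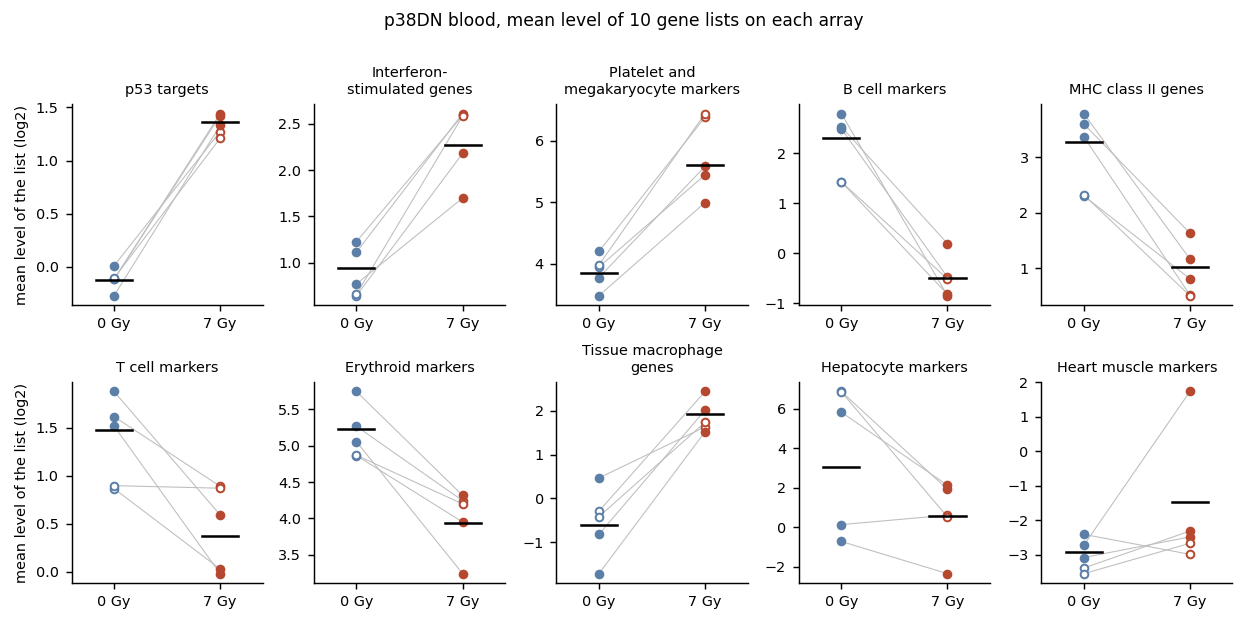
Mean level (log2, relative to the array's 75th percentile) of the measured members of 10 gene lists on each p38DN array at 0 Gy and 7 Gy. Points are arrays, grey lines join arrays of one slide, open circles are the 2 averaged pairs and bars are means of 4 samples; p53 targets run from -0.27 to 0.01 at 0 Gy and from 1.21 to 1.44 at 7 Gy, while hepatocyte markers are at 5.82 to 6.87 on 3 unirradiated arrays and heart markers at 1.74 on 1 irradiated array.

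Neutrophil genes rose in part. Of 24 receptors and activation genes 7 were higher (29.2%, against 14.2% of all genes) and 1 lower (4.17%, against 8.74%). Their median change was 0.60, and slide by slide it ran from -0.23 to 1.49. Padi4, the enzyme that citrullinates histones, rose by 2.85 (adjusted p 0.00047), Hdc, the histidine decarboxylase, by 2.49 (adjusted p 0.000288), Trem1 by 2.0 and the decoy receptor Il1r2 by 1.86 (adjusted p 0.00246). Hdc was at 0.78 to 1.61 without and 3.33 to 3.94 with radiation, with no overlap. The abundant calgranulins S100a8 (0.26, adjusted p 0.742) and S100a9 (0.52, adjusted p 0.385) did not pass, and neither did Ly6g (0.35, adjusted p 0.423) or Retnlg (-0.40, adjusted p 0.463). Cd177, a surface glycoprotein, changed by -1.0 and was the 1 member that fell. A list of 12 genes drawn up for granules of immature neutrophils had 3 higher (25%, against 14.2% of all genes) and 1 lower (8.33%). The list also holds the receptor gene Ltb4r1, which is not a granule gene. Prtn3, Anxa1 (1.42, adjusted p 0.0042) and Ltb4r1 (1.41, adjusted p 0.00802) rose. Chil3 fell by 1.72 on the log2 scale (adjusted p 0.019) and was highest on unirradiated arrays 4 and 5 at 8.22 and 8.25. Chil3 changed by -1.14 (adjusted p 0.0944) without those 2 arrays, and its call was also lost without unirradiated array 3 (-1.63), irradiated array 3 (-1.38) or irradiated arrays 1 and 5 (-1.58). In the 7-array set 8 receptor genes were higher and in the 5-array set 2.

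Tissue macrophage genes rose, with wide spread between arrays, and monocyte markers split. Of 24 monocyte markers 9 were higher (37.5%, against 14.2% of all genes), 2 lower (8.33%, near the 8.74% of all genes) and 13 did not pass. Among the risers were Adgre1, a macrophage surface antigen (3.03, adjusted p 0.000766), and the IgG receptor Fcgr4 (1.68, adjusted p 0.000337). Cx3cr1, the fractalkine receptor of patrolling monocytes, was at 0.53, 1.34, 2.24, 1.75 and 1.53 without and -0.94, -1.73, -2.85, -2.59 and -0.60 with radiation. It fell by 3.42 on the log2 scale (adjusted p 6.03e-05), with no overlap and with all 3 probes between -3.98 and -3.42. Treml4, the other monocyte marker that fell, changed by -0.92. With the 7-array set 6 markers were higher and 2 lower, and in the 5-array set 1 was higher and 1 lower.

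Of 23 tissue macrophage genes, a list added after values had been seen, 19 were higher (82.6%, against 14.2% of all genes) and none lower, with a median change of 2.82. Marco, a scavenger receptor for bacteria, was at 2.77, 0.18, -0.24, 1.92 and 1.74 without and 6.65, 6.33, 4.72, 6.62 and 6.50 with radiation (chromosome 1, 122371077-122371096). Irradiated array 3 was the lowest of its group but lay above all unirradiated arrays, and the change was 4.92 ± 0.90 (30.3-fold, adjusted p 0.000352 in limma). C1qa, a chain of the first complement component, was at 3.32, 1.15, -0.70, 1.58 and 1.70 without and 4.13, 5.27, 4.90, 5.47 and 4.20 with radiation, a change of 3.60 (12.1-fold). Unirradiated array 1 was highest and array 3 lowest for Marco and C1qa alike. Axl (2.24 ± 0.31, adjusted p 2.59e-05) and Mertk (2.82, adjusted p 0.000565), receptors for the clearance of dead cells, rose with tighter groups.

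The mean level of the macrophage list was 0.47, -0.82, -1.72, -0.29 and -0.42 on unirradiated and 1.63, 2.01, 1.52, 2.44 and 1.74 on irradiated arrays. Its slide-wise median change ran from 0.81 on the first p38DN slide to 3.51. The liver-rich unirradiated arrays 2, 4 and 5 lay between arrays 1 and 3 in this level. In the 7-array set, which leaves them out, 14 members were higher, and in the 5-array set 5 were.

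Other large rises also had wide spread between unirradiated arrays, and not all of these genes belong to the macrophage list. Saa3, an acute phase protein made outside the liver, was in the serum amyloid and acute phase list. In that list 1 of 13 measured genes was higher (7.69%, against 14.2% of all genes), none was lower, and the median change was -1.46. Saa3 was at 4.52, 1.20, 0.71, 2.76 and 2.61 without and 6.73, 7.92, 7.91, 7.22 and 6.33 with radiation (chromosome 7, 53970389-53970448). No array overlapped, and the change was 5.11 ± 1.16 (34.6-fold, adjusted p 0.00239); it was 5.86 without unirradiated array 1 and 4.60 with an adjusted p of 0.11 in the 5-array set. Cxcl13, a B cell attracting chemokine, rose by 4.56 (23.6-fold, adjusted p 0.000989) and by 5.15 without unirradiated array 1. The other large rises were Spp1 (4.22, well above background on 3 unirradiated arrays, and 3.51 without unirradiated array 2), Vsig4 (3.72, and 2.80 without unirradiated array 3), Ccl24 (3.69, and 4.47 or 2.82 without unirradiated array 1 or 3), Sdc3 (3.62, and 4.23 without unirradiated array 1) and Car6 (12.8-fold, well above background on 3 unirradiated arrays). C1qa moved to 4.26 and 2.92 without unirradiated array 1 or 3. In the 5-array set Cxcl13 (4.50, adjusted p 0.054 in limma), Ccl24 (3.30, adjusted p 0.139), Sdc3 (2.36, adjusted p 0.089) and C1qa (3.23, adjusted p 0.113) lost their calls. Spp1, Vsig4 and Car6 kept theirs in that set.

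Genes of the p38 cascade itself moved at about the rate of all genes. Of 21 kinases, phosphatases and regulators 5 were higher (23.8%) and 1 lower, and of 22 substrates and effectors 5 were higher (22.7%) and 1 lower, against 14.2% and 8.74% of all genes. Mapk14, which encodes p38 alpha, was at 2.62, 2.71, 2.65, 2.97 and 2.99 without and 4.28, 4.11, 3.8, 3.84 and 4.32 with radiation (chromosome 17, 28885290-28885349). The groups did not overlap, and the change was 1.27 ± 0.26 (2.42-fold, adjusted p 0.00102 in limma), while a second probe gave 0.42. The other p38 genes did not pass: Mapk11 changed by -0.74 (adjusted p 0.0697), Mapk12 by -0.05 (adjusted p 0.939) and Mapk13 by 0.23 (adjusted p 0.676). Mapk11 did pass without unirradiated arrays 4 and 5 (-0.96, adjusted p 0.0217), without irradiated arrays 1 and 5 (-0.97), with scaling on probes detected everywhere (-0.88), in the deposited table (-0.84) and with the liver level as a covariate (-0.88).

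Map3k6, an upstream kinase also called ASK2, was at -0.50, -1.82, -1.02, -1.14 and -1.25 without and 0.67, 2.09, 1.27, 1.36 and 0.57 with radiation (chromosome 4, 132808784-132808843). Each irradiated array was above 0 and each unirradiated array below it, and the change was 2.47 ± 0.28 (5.53-fold, adjusted p 1.47e-06), with a second probe at 2.54. The kinases Map2k3 (0.39, adjusted p 0.41), Map2k4 (-0.04, adjusted p 0.929) and Map2k6 (-0.42, adjusted p 0.46), which phosphorylate p38, did not pass. Among phosphatases Dusp10 (1.21, adjusted p 0.00625), Dusp16 (1.25, adjusted p 0.00531, with a second probe at -0.19) and Dusp1 (1.20, adjusted p 0.0438) rose. Dusp1 was no longer called without unirradiated array 2 (1.17) or 3 (1.22), without unirradiated arrays 4 and 5 (0.95), or without irradiated array 2 (1.11), 3 (1.20) or 4 (1.15). Gadd45a, an activator of MAP3K4 and a p53 target, fell by 1.12 on the log2 scale with an adjusted p of 0.0497. That call was lost without unirradiated array 1 (-1.07), 2 (-1.24), 3 (-0.90) or 4 (-1.12) and without irradiated array 2 (-0.80), 4 (-0.94) or 5 (-1.1). Ppm1d, the phosphatase Wip1, changed by 0.69 with no overlap (adjusted p 0.179).

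Among effectors, the phospholipase Pla2g4a (1.61, adjusted p 0.00278) and the kinase Mknk1 (1.54, adjusted p 0.00172) rose without overlap between doses. Mknk1 was at 1.1 to 1.61 without and 2.59 to 3.19 with radiation. Atf2 rose by 0.79 (adjusted p 0.00312), with its 4 probes between 0.00 and 0.79. Rps6ka4, the kinase MSK2, rose by 0.86 (adjusted p 0.0216), a call lost without unirradiated array 2 (0.73), unirradiated arrays 4 and 5 (0.78), irradiated array 2 (0.76) or irradiated array 4 (0.78). Mapkapk2, the kinase MK2, rose by 0.67 (adjusted p 0.0267), a call lost without unirradiated array 1 (0.63) or 2 (0.56), irradiated array 4 (0.57), or irradiated arrays 1 and 5 (0.63). Creb1, a transcription factor phosphorylated by MSK kinases, fell by 1.01 on the log2 scale (adjusted p 0.00738), with a second probe at 0.18. In the 5-array set 4 kinase-list members and 1 effector were higher. These are transcript levels, and kinase activity was not measured.

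**Figure D3:**
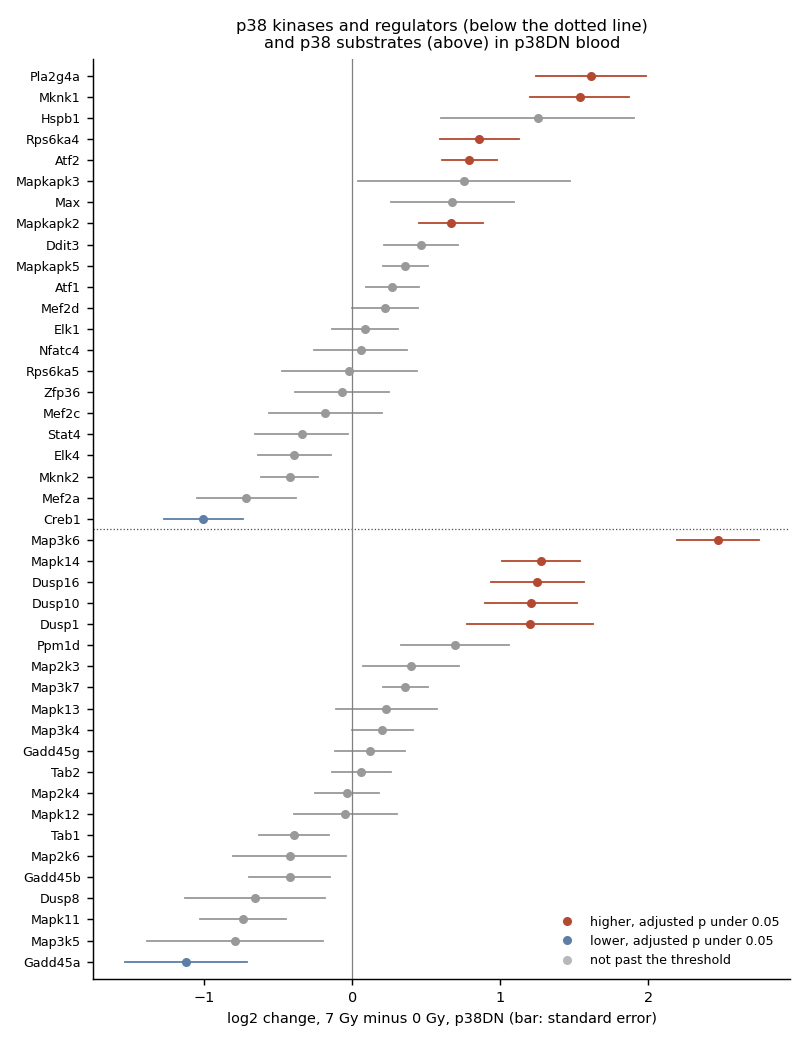
Change after 7 Gy in p38DN blood (log2, 7 Gy minus 0 Gy, ± SE, 4 against 4 samples) of 43 genes of the p38 cascade, with kinases and regulators below the dotted line and substrates and effectors above it. Red is higher, blue lower and grey not past an adjusted p of 0.05; Map3k6 lies farthest to the right at 2.47.

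Cell cycle genes moved in both directions, and DNA repair genes were lower where they passed. Of 34 cell cycle and mitosis genes 6 were lower (17.6%, against 8.74% of all genes) and 4 higher (11.8%, below the 14.2% of all genes), the falls led by Nusap1, a spindle protein (-2.69, adjusted p 9.27e-05), Ube2c (-2.46) and cyclin A2, Ccna2 (-2.16, adjusted p 0.00182). Nusap1 was at 3.79 to 5.0 without and 0.61 to 2.40 with radiation. The risers were Aurka, Plk1, Prc1 and Ccnd2. Aurka (1.97, adjusted p 0.0105) was at -0.98 and 0.07 on irradiated arrays 2 and 4 and at -3.03, -3.07 and -3.57 on arrays 1, 3 and 5, within or close to the unirradiated range of -4.83 to -3.34. With the 7-array set 9 genes were lower and 1 higher, and in the 5-array set 6 were lower and none higher.

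Of 37 DNA repair genes 10 were lower (27%, against 8.74% of all genes) and none higher. Among them were the Fanconi anaemia gene Fanca (-1.95, adjusted p 9.64e-05), the DNA break sensor Parp1 (-1.73, adjusted p 0.000152) and the checkpoint kinase Atr (-0.94, adjusted p 0.00157). Parp1 was at -0.17 to 0.94 without and -1.56 to -0.82 with radiation. In the 7-array set 9 were lower, and in the 5-array set 8 were. Of 29 genes of the Bcl2 family and death receptors 9 were higher (31%, against 14.2% of all genes) and 2 lower (6.9%, against 8.74%). The survival gene Bcl2l1, which erythroid cells express strongly, was at 8.42 to 9.26 without and 6.34 to 7.62 with radiation (-1.89, adjusted p 0.000537), and the BH3-only gene Bmf fell by 1.31 on the log2 scale (adjusted p 0.0035). Cflar, the caspase-8 regulator c-FLIP, rose by 1.22 and the BH3-only gene Bad by 0.94 (adjusted p 0.000981).

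Stress and signalling lists showed smaller counts. Among 17 immediate early and AP-1 genes 5 were higher (29.4%, against 14.2% of all genes) and 2 lower (11.8%, against 8.74%). Atf3 (2.0, adjusted p 0.00258), Ier3 (1.69), Egr2 (1.61), Jun (1.33) and Fosl2 (1.25) rose, and Dusp2 (-1.87) and Jund (-1.28) fell. Of 23 cytokine and NF-kB genes 4 rose (17.4%, near the 14.2% of all genes), Il15 (1.42, adjusted p 0.00359), Il18 (1.15), Tgfb1 and Tnfaip2, and Rel (-1.09, adjusted p 0.0174) fell; Il18 was at 0.89 with an adjusted p of 0.055 without unirradiated array 3 and at 1.0 (adjusted p 0.0886) with slide as a block over the 10 p38DN arrays, and Rel was at -0.85 (adjusted p 0.0853) without unirradiated array 3 and -0.98 (adjusted p 0.0534) without irradiated arrays 1 and 5. Of 16 glucocorticoid-responsive genes 6 were higher (37.5%, against 14.2% of all genes) and none lower, including the chaperone Fkbp5 (1.88, adjusted p 0.000608), Klf9 (1.65) and Zbtb16 (1.48). Of 15 clock genes 6 were higher (40%, against the same 14.2%) and none lower, including Nr1d1 (1.88), Bhlhe40 (1.57), Clock (1.55) and Nr1d2 (1.13). With slide as a block over the 10 p38DN arrays, Bhlhe40 (1.21, adjusted p 0.129 in limma) and Clock (1.28, adjusted p 0.0545) lost their calls. In the 5-array set the glucocorticoid and clock lists each had 1 higher member.

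Of 30 genes of the NRF2 antioxidant response 6 were higher (20%, against 14.2% of all genes) and 5 lower (16.7%, against 8.74%). Nfe2l2, which encodes NRF2, rose by 1.13 ± 0.17 (adjusted p 5.57e-05) with no overlap, from 1.48 to 1.68 without to 2.54 to 2.98 with radiation, while Sod2 (-1.95) and Blvrb (-1.83), a haem-breakdown enzyme of red cells, fell. Of 18 heat shock genes 4 were higher (22.2%, against 14.2% of all genes), led by Hspa1a (2.97, adjusted p 0.000216), and none was lower. Hspa1a was well above background on 2 unirradiated arrays. Of 74 cytoplasmic ribosomal protein genes 12 were lower (16.2%, against 8.74% of all genes) and none higher, with small changes such as Rps26 (-0.91, adjusted p 0.00654), Rps15 (-0.80) and Rpl8 (-0.75); in the 5-array set 3 were lower. Rps15 was at -0.70 (adjusted p 0.0555) without unirradiated array 3 and -0.69 (adjusted p 0.0502) without irradiated arrays 1 and 5.

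**Figure D4:**
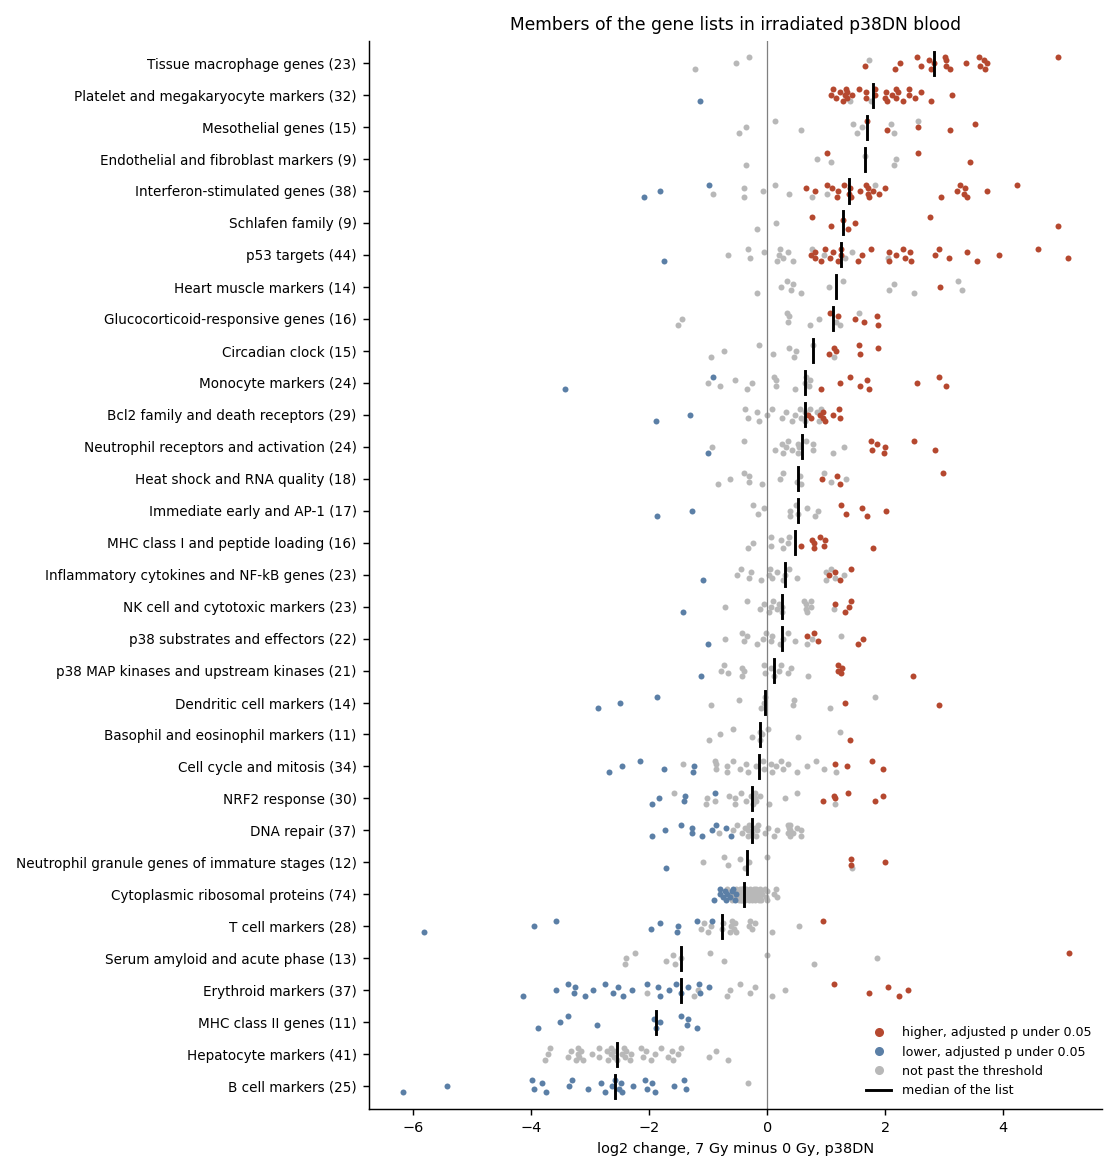
Change after 7 Gy in p38DN blood (log2, 7 Gy minus 0 Gy) of every measured member of 33 gene lists. Each point is a gene, red where higher, blue where lower and grey where the adjusted p is not below 0.05, and black ticks are list medians, such as 1.79 for platelet and -2.58 for B cell markers.

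Hepatocyte and heart muscle markers were high on particular arrays. None of 41 hepatocyte markers passed, although their median change was -2.55; it was 0.69 in the 7-array set and -0.58 in the 5-array set. With slide as a block over the 10 p38DN arrays, which counts the near-identical arrays separately, 23 of the 41 were lower. Kmo (18.3-fold) and Scd1 (14.2-fold), metabolic enzymes among the 15 largest falls, were highest within each dose on the liver-rich arrays. Both were lower after 7 Gy on all 5 slides. Without the 3 unirradiated liver-rich arrays they changed by -3.37 (adjusted p 0.08) and -2.6 (adjusted p 0.088), and in the 5-array set by -4.06 and -3.28. Unirradiated p38WT arrays had hepatocyte means of -3.82 to -2.96. In p38WT the 2 genes changed by -4.67 and -3.93 (adjusted p 0.000814 and 0.000866 in limma), and in p38DKI by -3.14 and -1.88. What liver RNA contributes to these falls was not tested. Scd1 changed by -3.19 without unirradiated arrays 4 and 5. Of 14 heart muscle markers Myh7 passed (2.93, adjusted p 0.0291), though not without unirradiated array 2 (2.90) or 3 (2.97), unirradiated arrays 4 and 5 (2.59), or irradiated array 2 (2.18), 3 (2.82) or 4 (2.88). Its groups overlapped, and Myl2, a ventricular light chain, was at 5.27 on irradiated array 3 and between -1.81 and -0.85 on the other irradiated arrays.

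Of 9 endothelial and fibroblast markers Pdpn (3.44, adjusted p 0.025), Col3a1 (2.56, adjusted p 0.0479) and Pecam1 (1.02, adjusted p 0.0291) were higher (33.3%, against 14.2% of all genes). Pdpn lost its call without unirradiated array 1 (3.17), 2 (3.29) or 3 (3.30), irradiated array 4 (3.34) or irradiated arrays 1 and 5 (2.93). Col3a1 lost it without unirradiated array 1 (2.51), 2 (2.42) or 3 (2.74), unirradiated arrays 4 and 5 (2.55), irradiated array 4 (2.41) or irradiated arrays 1 and 5 (2.0), and Pecam1 without unirradiated array 2 (0.94) or 3 (1.03), unirradiated arrays 4 and 5 (0.94), irradiated array 3 (0.96) or 4 (1.06), or irradiated arrays 1 and 5 (0.80). Of 15 mesothelial genes, a list added after values had been seen, 5 were higher (33.3%, against 14.2% of all genes), among them Efemp1 (3.09, adjusted p 0.00904) and Prg4 (3.52, adjusted p 0.0044). Pdpn and Col3a1 were highest on irradiated arrays 1 and 5, and Prg4 was at 6.94 and 6.71 on irradiated arrays 2 and 4 against 3.51 to 4.98 on the rest. The median change was above 0 on all 5 slides for both lists, from 0.82 to 2.31 for the endothelial and fibroblast list and from 1.30 to 2.10 for the mesothelial one. In the 5-array set no member of either list was higher.

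The p38DN response was set against those of the other genotypes by testing the difference of the changes in the same fit. Foreign tissue was not limited to p38DN arrays. The mean of the hepatocyte genes was 7.70 on p38DKI irradiated array 2, the highest of the series, and 2.22 on p38DKI unirradiated array 1. The mean of the heart genes was 1.56 on p38WT irradiated array 2 and 0.25 on p38WT unirradiated array 1. These arrays were in every test of a difference, and what they contribute was not tested. The difference from p38WT passed for 162 of 18726 genes (0.865%), 90 with a higher change in p38DN (0.481%) and 72 with a lower one (0.384%), and the difference from p38DKI passed for 24 (0.128%), 17 upward (0.0908%) and 7 downward (0.0374%). At an unadjusted p below 0.05 there were 3328 and 2890 genes. Because slide and genotype are confounded, a genotype effect and a slide effect cannot be told apart in these differences. With slide as a fixed block over the 30 arrays, 2 genes differed from p38WT and 0 from p38DKI in limma (1372 and 992 at an unadjusted p below 0.05), and of Map3k6, Zmat3, Tnfrsf10b, Ifit3, Oasl1, Retnlg, Ly6g, Clec10a, Mfge8, Scimp, Mcpt8 and Cd200r3, described below, only Mcpt8 kept its call against p38WT (4.64, adjusted p 0.0192). In p38WT and p38DKI the doses lay mostly on different slides, and 1 slide of each held both doses of its genotype. The differences also rested on single arrays. The p38WT difference passed for 22, 43, 7 and 8 genes without unirradiated array 2, unirradiated array 3, irradiated array 2 or irradiated array 4, for 245 without unirradiated array 4, for 380 without irradiated array 3, for 109 without unirradiated arrays 4 and 5 and for 835 without irradiated arrays 1 and 5. It passed for 116 genes in the 7-array set and for none in the 5-array set (1528 at an unadjusted p below 0.05 in limma) or with the normexp background correction (2107 at an unadjusted p below 0.05). The p38DKI difference passed for 79 genes without unirradiated array 1, 14 and 15 without unirradiated array 2 or irradiated array 4, and 81 without irradiated arrays 1 and 5; it was 16 without unirradiated arrays 4 and 5, and 0 in limma both in the 5-array set (1018 unadjusted) and with normexp (537 unadjusted).

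Map3k6 was the only gene of the p38 lists whose difference passed, and it passed against both genotypes. Its rise of 2.47 in p38DN compares with 0.36 in p38WT (difference 2.11 ± 0.37, adjusted p 0.0201 in limma) and 0.57 in p38DKI (difference 1.89, adjusted p 0.0315). Over 27 alternative settings the difference from p38WT was between 0.84 and 2.72 and passed in 23, and that from p38DKI was between 0.82 and 2.13 and passed in 15. With the fixed slide block the differences were 2.02 (adjusted p 0.505) and 1.55 (adjusted p 0.859). The change differed by 1.74 (adjusted p 0.0462) from p38WT in the 7-array set and 1.35 (adjusted p 0.303) in the 5-array set. Among p53 targets Zmat3 rose by 1.69 more than in p38WT (adjusted p 0.0232), with a p38WT change of 1.39. For Tnfrsf10b the fitted difference was 1.85 (adjusted p 0.0297), but its unirradiated p38DN signal was not well above background, so the size of this difference was not measured. The Zmat3 difference was above 0 in all 27 settings and passed in 20, and that of Tnfrsf10b passed in 18 and was -0.37 with normexp. No p53 target passed the test against p38DKI. Among interferon-stimulated genes Ifit3 rose by 2.24 less, a difference of -2.24 ± 0.44 (adjusted p 0.0232) between 3.21 in p38DN and 5.45 in p38WT, and Oasl1 differed by -1.6 (adjusted p 0.0454) between 1.89 and 3.49. The Ifit3 difference lay between -2.62 and -1.39 over the 27 settings and passed in 21, and that of Oasl1 lay between -1.76 and -0.99 and passed in 14. The other measured interferon-stimulated genes did not pass this test against p38WT, and none passed it against p38DKI.

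In the neutrophil list Retnlg differed from p38WT by -2.34 (adjusted p 0.0306) and Ly6g by -1.72 (adjusted p 0.0377), since they rose by 1.94 and 2.08 in p38WT and did not pass in p38DN. These differences passed in 17 and 16 of 27 settings. The list median was 0.60 in p38DN, 2.11 in p38WT and 1.65 in p38DKI. Mcpt8, a basophil protease, differed by 3.49 from p38WT (adjusted p 0.00877) and 3.98 from p38DKI (adjusted p 0.00415), and Cd200r3 by 2.68 from p38WT (adjusted p 0.0393). Over 25 settings the difference from p38WT passed in 23 for Mcpt8 and in 15 for Cd200r3. Neither was well above background on any p38DN array, irradiated or not, at -5.80 to -4.43 for Mcpt8, so in p38DN blood there was no measured level from which they could fall.

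Clec10a, a lectin of dendritic cells and macrophages, was at 0.38, -0.78, -0.73, -0.58 and -0.36 without and 1.23, 3.32, 2.39, 3.10 and 1.19 with radiation (chromosome 11, 69984254-69984313). It rose by 2.91 in p38DN and changed by -0.84 in p38WT (difference 3.75 ± 0.81, adjusted p 0.0311). The difference passed in 17 of 27 settings, between 1.94 and 4.36, and was 3.52 (adjusted p 0.0753) in the 7-array set. Among genes whose p38DN arrays did not overlap between doses, a condition of the naming rule that Mcpt8 and Cd200r3 do not meet, the next differences upward from p38WT were Ddr1 (3.03, adjusted p 0.0311, not well above background on any unirradiated p38DN array), Niban2 (2.69, adjusted p 0.0462), Slc7a8 (2.24, adjusted p 0.0446) and Mfge8 (2.12, adjusted p 0.0297), a bridge protein for the uptake of dead cells. Downward they were Ptchd3 (-2.71), Pnldc1 (-2.61), Ttll13 (-2.51), Scimp (-2.47, adjusted p 0.0297), an adaptor of antigen-presenting cells, and 2310047D07Rik (-2.35, adjusted p 0.0232). Scimp was at -1.09 to 0.49 without and -3.70 to -1.40 with radiation and fell by 2.62 on the log2 scale in p38DN. Over 27 settings the difference from p38WT passed in 16 for Mfge8 and in 18 for Scimp. Against p38DKI the differences named under the same condition were Apbb1 (2.25), G6pd2 (2.2), Phip (2.04) and Cenpt (1.55) upward and Zfp467 (-1.66, adjusted p 0.0242) downward, the last with 4 probes whose changes ran from -0.69 to 1.05.

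Of the 2667 genes higher in p38DN, 1478 (55.4%) were also called higher in p38WT, or 52.9% of the 2794 p38WT calls, and 12 were called lower there. Of the 1636 lower genes 815 (49.8%) were also called lower in p38WT, or 36.4% of its 2237 calls. Median changes of the p53 list were 1.25, 1.09 and 1.25 and of the interferon list 1.39, 1.37 and 1.36 in p38DN, p38WT and p38DKI. For B cell markers they were -2.58, -3.89 and -3.84 and for MHC class II -1.88, -3.61 and -2.84, but no B cell or MHC class II gene passed the test of the difference from either genotype.

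**Figure D5:**
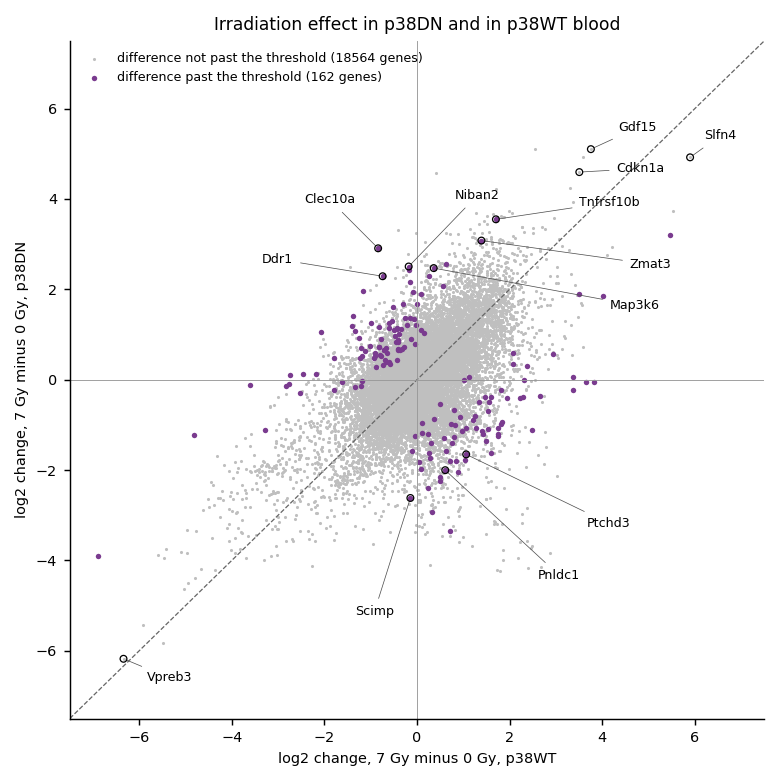
Change after 7 Gy (log2, 7 Gy minus 0 Gy) in p38DN against p38WT for 18726 genes, with the 162 genes whose difference has an adjusted p below 0.05 in purple and the dashed line at equal change. Circled genes are named in the text. Clec10a and Map3k6 lie above the line and Scimp below it.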

How the data were processed

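Whole-blood RNA was labelled with Cy3 and hybridised to one-colour Agilent arrays. The deposited scanner files hold signal intensity per spot, background-corrected by the authors with Agilent Feature Extraction 12.0.2, per the submitters' processing notes, and the deposited series table holds log2 values, which were found to be log2 signal minus 1 constant per array. Probe positions are mm9, per the file headers. Here, log2 intensity was taken relative to each array's 75th percentile. Repeat spots were averaged. Probes had to be detected over background on 4 or more arrays of any group of 5, and the brightest such probe stood for its gene. Probes were named through RefSeq where accession (29056 probes), symbol (3150) or synonym (116) matched. Changes were tested with limma 3.58.1 (R 4.3.3) over all genotypes, with Benjamini-Hochberg adjustment over 18726 genes. Near-identical arrays were averaged, a departure from the planned 5 against 5, which left 28 samples and 22 residual degrees of freedom. The procedure was tested on simulated data. If a probe was undetected throughout the dimmer group, the fold is a lower bound.

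Genes named are the 15 largest rises and falls that passed, did not overlap and were detected on each of the 5 brighter arrays, the 3 members of smallest p per list (all for the p38 and Schlafen lists) and, among genes whose p38DN arrays did not overlap, the 5 largest differences per direction; other names were chosen after their values were seen. Members, lists and tests were chosen with earlier results of these data known, and 2 of the 33 lists were added after the values. The array count limits the precision. A few genes that the naming rule covers are not reported here.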

Additional observations from a re-analysis of the deposited data

Results flagged for a closer look

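In the 4 samples of a group, a sample standing apart from the other 3 was looked for with Dixon's test. It was applied to 352 groups of values (176 genes at both doses) and marks about 1 group in 20 by chance. Of these, 16 gene values were marked, near the number that this rate gives, so any of them may be chance. The mean of 1 list, not among the 352, was marked as well. Among unirradiated samples the averaged arrays 4 and 5 stood apart for Bad (2.63, others 2.06 to 2.12), Max (4.25, others 4.06 to 4.08), Jun (1.42, others 0.57 to 0.67) and Pdpn (-2.41, others -4.86 to -4.49) on the high side. They were low for Slfn4 (-4.35, others -2.65 to -2.57), Fcer2a (0.50, others 2.09 to 2.34) and the eosinophil receptor genes Ccr3 (-2.47, others -0.97 to -0.77) and Il5ra (-1.79, others -0.79 to -0.62). Sample 3 was low for Slfn9 (-2.98, others -1.24 to -1.05). Sample 2 was high for Map2k6, a kinase upstream of p38 (-1.23, others -1.66 to -1.6).

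Among irradiated samples, the averaged arrays 1 and 5 stood apart for Ptgs1 (6.42, others 5.77 to 5.79), Rps6ka4 (0.76, others 1.63 to 1.74) and Aldh1a2 (-0.03, others 0.97 to 1.04). Sample 2 was low for Rtp4 (3.72, others 4.35 to 4.39) and sample 3 for Marco (4.72, others 6.33 to 6.62). Sample 3 was high for Myl2 (5.27, others -1.78 to -0.85) and for the mean of the heart muscle genes (0.74, others -3.24 to -2.89).

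The irradiation change differed between p38DN and p38WT, by the test of the difference itself, for Clec10a (3.75), Mcpt8 (3.49), Ddr1 (3.03), Niban2 (2.69), Cd200r3 (2.68), Slc7a8 (2.24), Mfge8 (2.12), Map3k6 (2.11), Tnfrsf10b (1.85) and Zmat3 (1.69) upward. It differed downward for Oasl1 (-1.6), Ly6g (-1.72), Ifit3 (-2.24), Retnlg (-2.34), 2310047D07Rik (-2.35), Scimp (-2.47), Ttll13 (-2.51), Pnldc1 (-2.61) and Ptchd3 (-2.71). Against p38DKI the change differed for Mcpt8 (3.98), Apbb1 (2.25), G6pd2 (2.2), Phip (2.04), Map3k6 (1.89) and Cenpt (1.55) upward and for Zfp467 (-1.66) downward. These are the differences among genes named in the text. Slide and genotype cannot be told apart in them, and Mcpt8, Cd200r3, Ddr1 and Tnfrsf10b had signals not well above background on p38DN arrays of at least 1 dose.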

How the results depend on the processing

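For the irradiation effect in p38DN, 4303 genes passed with 2667 higher and 1636 lower, and these counts stayed within 1.5 times under every alternative except those named here; for each value in this part the cause was not tested. Arrays that limit the results are the near-identical pairs and those rich in liver or heart RNA, and faint probes are limited by signal over background, as the filter on dim probes shows. The genes named here for a change of sign, Map2k4, Mapk12, Mapk13, Zfp36, Rps6ka5, Slfn5, Slfn14, Mef2c, Mef2d, Gadd45g, Tab2, Elk1, Nfatc4 and Fgb, did not pass at the main setting, with Benjamini-Hochberg adjusted p-values from limma.

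With normexp background correction 417 genes passed in p38DN, 320 higher and 97 lower, all 417 among the 4303. The differences from p38WT and from p38DKI then gave 0 genes (0 higher and 0 lower), with 2107 and 537 at an unadjusted p below 0.05. Log2 changes were 0.018 for Map2k4, -0.010 for Mapk13, -0.023 for Slfn14 and 0.14 for Slfn5.

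Scaling on each array's median gave a difference from p38WT for 61 genes, 23 higher and 38 lower, and from p38DKI for 9 higher and 16 lower. Log2 changes were 0.061 for Map2k4, 0.048 for Mapk12, 0.027 for Zfp36 and 0.077 for Rps6ka5. With no scaling, 875 genes were lower in p38DN, 10 had a lower change than in p38WT, and 11 differed from p38DKI (5 higher). Log2 changes were then 0.15 for Map2k4, 0.13 for Mapk12, 0.11 for Zfp36, 0.0015 for Slfn5, 0.0012 for Mef2c and 0.16 for Rps6ka5. With the percentile taken over probes detected on all arrays, 2511 genes were lower in p38DN, 290 differed from p38WT (163 higher and 127 lower) and 11 were lower than in p38DKI. Log2 changes were -0.026 for Gadd45g, -0.086 for Tab2, -0.00075 for Slfn14, -0.061 for Elk1 and -0.090 for Nfatc4. Quantile normalization gave 423 genes different from p38WT (187 of them lower, the rest higher) and 72 different from p38DKI (45 higher and 27 lower), with log2 changes of 0.033 for Map2k4, 0.048 for Zfp36 and 0.045 for Rps6ka5. In the deposited log2 values 272 genes differed from p38WT (190 lower) and 40 from p38DKI (6 higher and 34 lower), with -0.046 for Tab2 and -0.050 for Nfatc4. Without a filter on dim probes 20 genes differed from p38WT (8 higher and 12 lower) and 14 from p38DKI (9 higher). A filter for detection on all 5 arrays of a p38DN group gave 364 genes different from p38WT, 193 higher and 171 lower.

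Arrays with the same number in the 2 p38DN groups shared a slide. Their deviations from the group means correlated at 0.039, 0.280, 0.334, 0.330 and -0.072 over 11833 genes, so the numbers were not taken to pair the animals. With the slide, and so the replicate number, as a block over the 10 p38DN arrays, 4511 genes passed, 2589 higher and 1922 lower, and Rps6ka5 changed by 0.26. Over all 30 arrays, a fixed slide block left 2 genes different from p38WT (2 higher and 0 lower) and 0 from p38DKI (0 higher and 0 lower), with 1372 and 992 at an unadjusted p below 0.05, and 0.26 for Rps6ka5. A random slide block gave 461 (277 higher and 184 lower) and 255 (205 higher and 50 lower), with 0.26 for Rps6ka5. Fitting all 30 arrays as separate samples, an alternative chosen after seeing the data, gave 307 (187 higher and 120 lower) and 174 (135 higher and 39 lower), again with 0.26 for Rps6ka5. The count in p38DN was then 5229, of which 4129 were among the 4303.

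With each array's liver marker level as a covariate, 2747 genes were lower in p38DN, 1148 differed from p38WT (333 higher and 815 lower) and 37 from p38DKI (8 higher and 29 lower). Log2 changes were 0.047 for Map2k4, -0.072 for Tab2, -0.11 for Slfn14, -0.020 for Elk1 and -0.097 for Nfatc4. The 7-array set had 1686 genes higher in p38DN, 29 with a higher change than in p38WT and 9 that differed from p38DKI (4 higher). Log2 changes were 0.45 for Fgb, 0.046 for Map2k4, -0.061 for Mapk13, 0.13 for Zfp36, -0.12 for Tab2, -0.16 for Mef2d, -0.13 for Elk1 and -0.23 for Nfatc4. In the 5-array set 1649 genes passed in p38DN, 999 higher and 650 lower, and the differences from p38WT and p38DKI gave 0 genes (0 higher and 0 lower), with 1528 and 1018 at an unadjusted p below 0.05. Log2 changes were -0.023 for Tab2, -0.27 for Mef2d, -0.38 for Elk1 and 0.19 for Mef2c.

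Leaving out 1 p38DN array, or 1 pair of near-identical arrays, at a time gave 3186 to 4559 genes in p38DN, with 1022 to 1832 lower, the count of lower genes being 1022 without unirradiated array 3 and 1081 without irradiated array 4. The difference from p38WT ranged from 7 to 835 genes (2 to 504 higher and 3 to 331 lower), and that from p38DKI from 14 to 81 (9 to 56 higher and 4 to 25 lower). The highest counts, 835 and 81, came without irradiated arrays 1 and 5 together; with 1 array left out they were 380, without irradiated array 3, and 79, without unirradiated array 1. Log2 changes ran from -0.18 to 0.13 for Map2k4, -0.21 to 0.18 for Mapk12, -0.52 to 0.25 for Rps6ka5 and -0.27 to 0.13 for Zfp36. For Nfatc4 they ran from -0.12 to 0.32, for Slfn5 from -0.38 to 0.058, for Mef2c from -0.52 to 0.13, for Elk1 from -0.046 to 0.27, for Tab2 from -0.027 to 0.20 and for Gadd45g from -0.098 to 0.31.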
